A study of Homo sapiens with 12 samples.

Results

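The 8 genes ATF4, DDIT3, XBP1, HSPA5, PDIA4, TRIB3, ASNS and HSP90B1, which belong to the unfolded protein response and the integrated stress response, were examined for peaks of N6-methyladenosine (m6A, adenosine that carries a methyl group and is common in mRNA) in H460, a line grown from a human large cell lung cancer. A member interval is a line of a deposited peak list that shares at least 1 bp with the hg19 locus of one of these 8 genes on the same strand. By this rule 50 of 53502 intervals were members. They lay on 5 loci, XBP1, HSPA5, PDIA4, TRIB3 and HSP90B1, and none lay on ATF4, DDIT3 or ASNS. The share of all genes with an interval was not computed, since gene positions of hg19 were at hand only for the 8 loci. Whether 5 of 8 is unusual is therefore not known.

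The series used MeRIP-seq, in which RNA fragments carrying m6A are pulled down with an antibody (IP) and sequenced beside an input library. Its 12 libraries of wild-type H460 cells form 4 groups of 3: input and IP of cells without treatment, and input and IP of cells given 100 nM rapamycin for 24 h, a treatment used to induce autophagy by inhibiting the kinase complex mTORC1. The data are 6 peak lists, called A to F, and the record places all of them with untreated cells: lists A and B with the input and the IP of replicate 1, lists C and D with those of replicate 2, and lists E and F with those of replicate 3. The list names point elsewhere, since D, E and F are named for rapamycin and A, B and C for controls. The record also ties each list to a single library, whereas MeRIP-seq peaks are usually called from an IP set against its input. No list was therefore placed in an arm. Values are of single lists or, where said, taken over the lists together. They carry no error and no test, and neither rapamycin with untreated cells nor input with IP was compared. The lists carry no gene levels, and marker genes of the line were not checked.

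When unfolded protein builds up in the endoplasmic reticulum (ER), sensor proteins in its membrane switch on the unfolded protein response. One sensor splices the XBP1 mRNA so that it yields an active transcription factor, and another phosphorylates the initiation factor eIF2, which lowers protein synthesis while favouring translation of ATF4. Kinases that sense amino acid shortage or other stress act on eIF2 too, and this shared part is called the integrated stress response. ATF4 raises transcription of DDIT3, TRIB3 and ASNS, whereas ER chaperones such as HSPA5, HSP90B1 and PDIA4 are induced through ER stress elements in their promoters. In mRNA, m6A is known to be most frequent near stop codons, in the last exon and in long internal exons.

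The promoters are shown first, because 2 lists held an interval just upstream of the HSP90B1 start and because PDIA4 and TRIB3 also had intervals at their 5′ ends. RefSeq promoter windows (GRCh38.p14, 250 bases before to 50 after an annotated start) matched all 8 genes by symbol. The windows are of another build than the lists, so intervals were not placed on them. The ER stress element was searched as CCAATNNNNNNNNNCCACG on both strands. An exact match was found in 27 of 35116 windows (0.0769%). Among them were the first-listed windows of HSP90B1, HSPA5 and XBP1 and no window of the other 5 genes. Since the element is known from ER chaperone genes such as HSPA5 and HSP90B1, their matches show known sites and are not a separate finding. A window without an exact match can hold a variant. The DDIT3 windows, for example, hold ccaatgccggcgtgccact, which differs from the searched letters only in the last one. How many of all windows hold such a near match was not counted. HSP90B1 had 2 matches that do not overlap, beginning 194 and 89 bases before the start on the plus and minus strand of the window. The match began 66 bases before the start in HSPA5 and 52 bases before it in XBP1. Capitals mark the matches. PDIA4, with no exact match, is printed too, which does not show that it lacks the element.
HSP90B1 (chr12:103930160-103930459, plus strand): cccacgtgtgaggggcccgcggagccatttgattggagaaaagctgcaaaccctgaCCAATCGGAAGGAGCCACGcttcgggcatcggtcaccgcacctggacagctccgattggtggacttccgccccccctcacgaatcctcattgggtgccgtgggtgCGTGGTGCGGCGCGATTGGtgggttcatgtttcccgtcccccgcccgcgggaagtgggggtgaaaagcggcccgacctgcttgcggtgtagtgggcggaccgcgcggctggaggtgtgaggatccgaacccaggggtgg
HSPA5 (chr9:125241294-125241593, minus strand): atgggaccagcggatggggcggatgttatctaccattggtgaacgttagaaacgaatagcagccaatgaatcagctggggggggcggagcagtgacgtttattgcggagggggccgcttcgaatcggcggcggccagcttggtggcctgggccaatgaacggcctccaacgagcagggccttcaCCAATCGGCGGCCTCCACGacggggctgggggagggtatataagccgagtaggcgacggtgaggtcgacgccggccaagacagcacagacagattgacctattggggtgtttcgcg
XBP1 (chr22:28800520-28800819, minus strand): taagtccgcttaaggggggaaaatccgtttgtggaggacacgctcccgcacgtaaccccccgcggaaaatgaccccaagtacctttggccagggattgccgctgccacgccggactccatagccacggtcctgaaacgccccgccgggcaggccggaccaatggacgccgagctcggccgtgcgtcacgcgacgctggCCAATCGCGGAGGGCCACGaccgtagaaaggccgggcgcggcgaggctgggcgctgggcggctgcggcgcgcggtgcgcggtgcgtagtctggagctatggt
PDIA4 (chr7:149028441-149028740, minus strand): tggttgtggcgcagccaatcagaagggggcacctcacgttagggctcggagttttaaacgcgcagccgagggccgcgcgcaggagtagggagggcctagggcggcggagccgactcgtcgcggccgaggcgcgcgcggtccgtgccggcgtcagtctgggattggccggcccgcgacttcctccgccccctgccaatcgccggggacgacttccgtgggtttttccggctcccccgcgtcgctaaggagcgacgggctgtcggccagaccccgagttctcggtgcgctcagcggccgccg
The amino acid response element bound by ATF4 and its partners was searched as TGATGNAAN, on both strands. It occurred in 1268 windows (3.61%), and of the 8 genes only in the first window of ASNS, as TGATGAAAC from base 183 to base 191. Both searches read these windows alone and counted exact matches only, and a match is a stretch of letters, not a bound site.

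The intervals of the 5 loci formed 16 regions once overlapping intervals of the lists were joined on the same strand. Of these, 3 were held by all 6 lists, beside 8.30% of the 20742 regions of the series. They were the regions at the 5′ and 3′ ends of PDIA4 and at the 3′ end of HSP90B1. A further 2 regions were held by 5 lists, 1 by 4, 2 by 3, 4 by 2 and 4 by a single list (36.9% of all regions were held by 1 list). Within each list the intervals were ranked by the score the authors gave them, and the percentile used here is the share of the list's intervals scoring lower, with ties at their middle rank. No source used here states its scale, so scores and percentiles rank intervals within a list and do not measure a change between lists. Many intervals share the score 3100, and a percentile at this value also reflects how many others are tied there. A score of 3100 or more was found for 16 of the 50 member intervals, beside 6.78% of all intervals of the lists. The 3′ end of PDIA4 alone gave 6 of these 16 intervals. A region counts once for each list that holds it, here and in the values that follow, so the 50 intervals are not separate sites. The median percentile of the member intervals was 87.3, with a range from 2.12 to 99.96, and 38 of the 50 scored above the median of their own list. They were narrow, from 139 to 1408 bp wide with a median of 298 bp, against a median of 594 bp over all intervals.

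**Figure D1:**
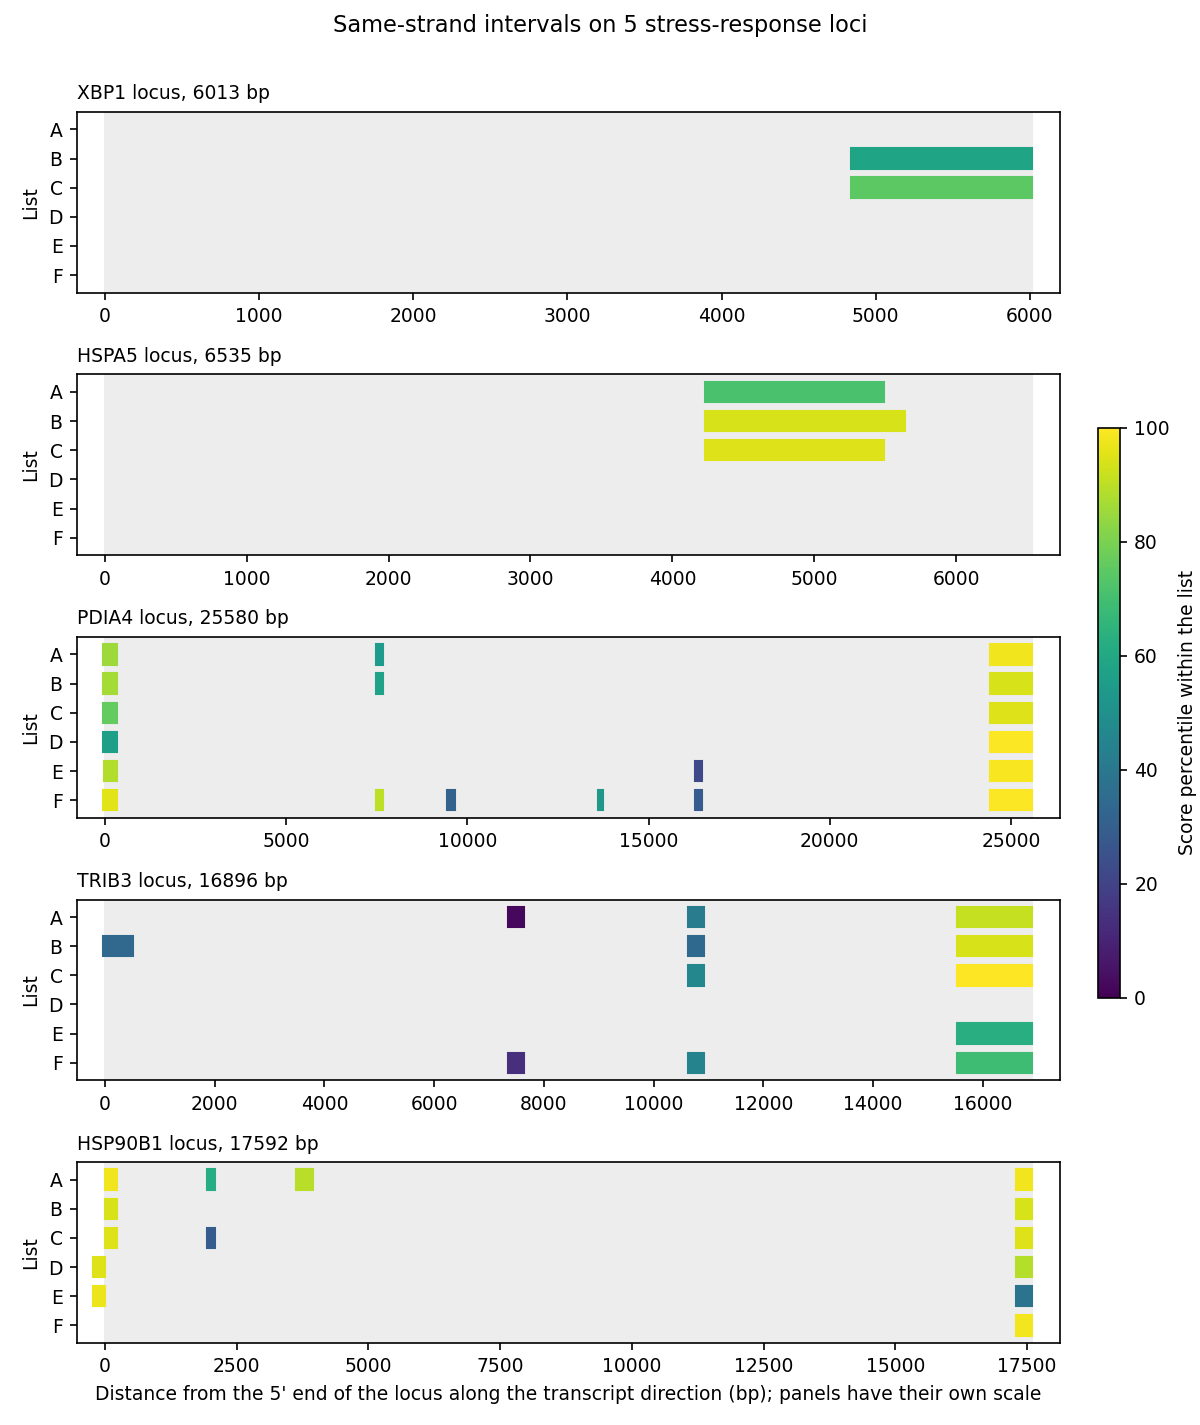
Intervals on the 5 loci that held any, by list (rows A to F), against distance from the 5′ end of the locus in bp along the direction of transcription; grey marks the locus, including introns, and colour the score percentile within the list. The 3′ end of PDIA4 and that of HSP90B1 carry an interval in all 6 lists. HSPA5 carries none in D, E and F, and XBP1 none in A, D, E and F.

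Of the 3 transcription factors examined (ATF4, DDIT3 and XBP1), XBP1 alone had a same-strand interval. Its region lay at the 3′ end of the locus (chr22:29190545-29191720, minus strand, 1176 bp) and ran 3 bp past the end of the locus as the rule sets it. It was held by B, with a score of 536.13 at percentile 58.3, and by C, with 1105.51 at percentile 74.7. Lists A, D, E and F held no interval on XBP1. The ends were identical in B and C, and the interval covered 1173 of the 6013 bp of the locus. Regions held by exactly B and C made up 7.81% of all regions.

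ATF4, the transcription factor whose translation rises when eIF2 is phosphorylated, had no interval on either strand of its 2123 bp locus in any list. The nearest same-strand interval upstream was 2430 bp away in A, C and D, 4515 bp in B and 4787 bp in E. In F it was 1631862 bp away. In RefSeq (GRCh38) the neighbour on that side is MIEF1, on the same strand as ATF4. Downstream, no same-strand interval came nearer than 522130 bp.

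DDIT3, which encodes the stress-induced factor CHOP, also lacked same-strand intervals in all 6 lists. On the opposite strand, B held an interval of 898 bp (chr12:57909533-57910430, score 598.92, percentile 60.7) and D one of 1694 bp (chr12:57908737-57910430, score 85.89, percentile 11.5). Both ended at the same base and reached 60 bp into the 3′ end of the DDIT3 locus. The neighbouring plus-strand gene there is MARS1, a methionyl-tRNA synthetase, with no gap between the genes in RefSeq. Whether the libraries kept strand is not stated, so reads of DDIT3 and MARS1 in these 60 bp cannot be told apart.

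Of the ER chaperones, HSPA5 encodes BiP, the Hsp70 of the ER lumen that binds unfolded chains and holds the stress sensors inactive. It had a single region, inside the locus and 894 bp or more from its 3′ end (chr9:127998026-127999433, minus strand). List A held it at chr9:127998177-127999433 with a score of 530.27 and a percentile of 71.3. List B held a longer interval of 1408 bp with a score of 3100, percentile 93.9. In C the ends were those of A, 1257 bp apart, and the score was 3100, percentile 94.8. The interval of B thus ran 151 bp further towards the 3′ end, while the 5′ end was the same base in A, B and C. Lists D, E and F held no interval on HSPA5. Regions held by exactly A, B and C made up 12.3% of all regions, so this pattern is a common one. The lists differ in length: A has 12040 intervals, B 14908 and C 12288, whereas D has 4837, E 4530 and F 4899.

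PDIA4, also called ERp72, is a protein disulfide isomerase that forms and rearranges disulfide bonds of client proteins. It had 19 intervals in 6 regions. The region at the 3′ end (chr7:148700154-148701301, minus strand, 1148 bp) had the same ends in all 6 lists, and its last base was that of the locus. Its score was 3100 in each of the 6 lists. The percentile was 98.0 for list A, 93.9 for B, 94.8 for C, 99.2 for both D and E, and 99.4 for F. In all, 23 regions of the series (0.111%) reached 3100 in every list, and this was the only one on the 8 loci. In D and E it took rank 4, with 3 intervals scoring higher. Every interval of these lists at 3100 shares that rank.

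The region at the 5′ end of PDIA4 (chr7:148725413-148725782, 370 bp) was held by all lists as well. List A scored it 1091.09, B 2630.46, C 1173.70, D 223.62, E 815.81 and F 1342.67. The percentile was lowest in D, at 56.2, and highest in F, at 95.5, and the other 4 lists lay between 75.9 and 88.3. It began 49 bp before the locus in 5 lists and 16 bp before it in E, and its inner end was the same base in all 6. The score at the 3′ end was the higher one in 6 of 6 lists.

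Between these ends PDIA4 had 4 short regions that differed from list to list. The region at chr7:148718059-148718239 (181 bp) was held by A with a score of 279.35, B with 517.80 and F with 771.13, at percentiles of 54.4, 57.5 and 90.2. Regions at chr7:148709247-148709452 (206 bp, E and F), chr7:148716084-148716289 (206 bp, F) and chr7:148711996-148712134 (139 bp, F) scored between 98.45 and 181.43. List F, one of the shorter lists, thus held 6 intervals on PDIA4, more than any other list, while C and D held 2 each and A, B and E held 3. Covered bases ran from 1469 bp in C and D to 2201 bp in F, of a locus of 25580 bp. Regions held by E and F alone made up 0.241% of all regions. That of PDIA4 stood at percentiles of 21.7 in E and 28.2 in F. Neither list kept it at a minimum score of 260.4.

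HSP90B1 encodes GRP94, the Hsp90 of the ER. It had 14 intervals in 4 regions. The region at the 3′ end (chr12:104341411-104341708, plus strand, 298 bp) was held by all 6 lists with the same ends, 5 bp past the end of the locus. It stood at 3100 in lists A, B and C. List D scored it 897.12, E 136.03 and F 2183.77. The percentile in E was 37.9, whereas in the other 5 lists it was 88.8 or more.

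At the 5′ end of HSP90B1 the lists held different stretches. In A, B and C the interval ran from the first base of the locus 231 bp inwards (chr12:104324112-104324342) with a score of 3100. In D and E it lay on the upstream side (chr12:104323885-104324116, 232 bp) and reached only 5 bp into the locus. Its score was 1466.18 in D, percentile 94.6, and 2225.43 in E, percentile 97.0. List F held neither. The intervals of D and E shared 5 bp with those of A, B and C, and they count as 1 region of 5 lists only because 1 bp sufficed for joining. In D and E the upstream interval outscored the one at the 3′ end, and in A, B and C both ends stood at 3100. Inside the locus, A and C held chr12:104326055-104326196 (142 bp, scores 364.73 and 163.48), and A alone held chr12:104327734-104328065 (332 bp, score 1410.49, percentile 89.1).

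**Figure D2:**
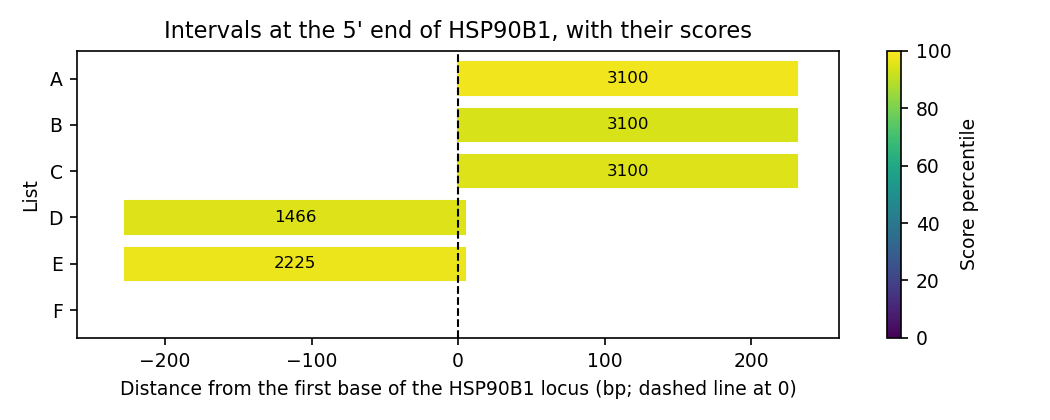
Intervals of each list around the first base of the HSP90B1 locus (dashed line), with distance in bp along the transcript on the horizontal axis, the score written on each interval and colour for the percentile within the list. A, B and C lie inside the locus at 3100, D and E lie upstream at 1466.18 and 2225.43, and F is empty.

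Of the ATF4 targets outside the ER, TRIB3 is a pseudokinase that inhibits AKT and dampens ATF4 activity. It had 12 intervals in 4 regions, in every list but D. The region at the 3′ end (chr20:376842-378203, plus strand, 1362 bp) ended at the last base of the locus and had identical ends in its 5 lists. List A scored it 1687.26 (percentile 91.4), B 3100 (93.9) and C 3226.07 (99.96). List E scored it 256.34 (percentile 62.6) and F 277.96 (68.8). Each percentile ranks the region within a list of its own length, and that of B is the tie at 3100. They do not measure a change between lists. In C the region was rank 5 of the list, although whether scores above 3100 mark stronger peaks is not known.

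The other TRIB3 regions scored low. The one at chr20:371931-372223 (293 bp) was held by A, B, C and F at percentiles from 34.0 to 46.4. The one at chr20:368655-368945 (291 bp) was held by A with a score of 72.97 and by F with 85.22, close to the lowest scores of these lists, 70.02 and 70.08. List B alone held an interval at the 5′ end (chr20:361273-361813, 541 bp, score 196.92), which began 35 bp before the locus. In each list with both, the 3′ end outscored the 293 bp region (4 of 4 lists).

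ASNS, which makes asparagine and is a classical target of ATF4, had no interval on either strand of its 20426 bp locus in any list. The nearest same-strand interval was 343155 bp upstream of it, in A. ATF4, DDIT3 and ASNS were thus without same-strand intervals in all 6 lists. The lists give no RNA level and no depth, so low expression, little m6A and too few reads cannot be told apart for these genes, nor for HSPA5, XBP1 and TRIB3 in the lists that lack them.

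**Figure D3:**
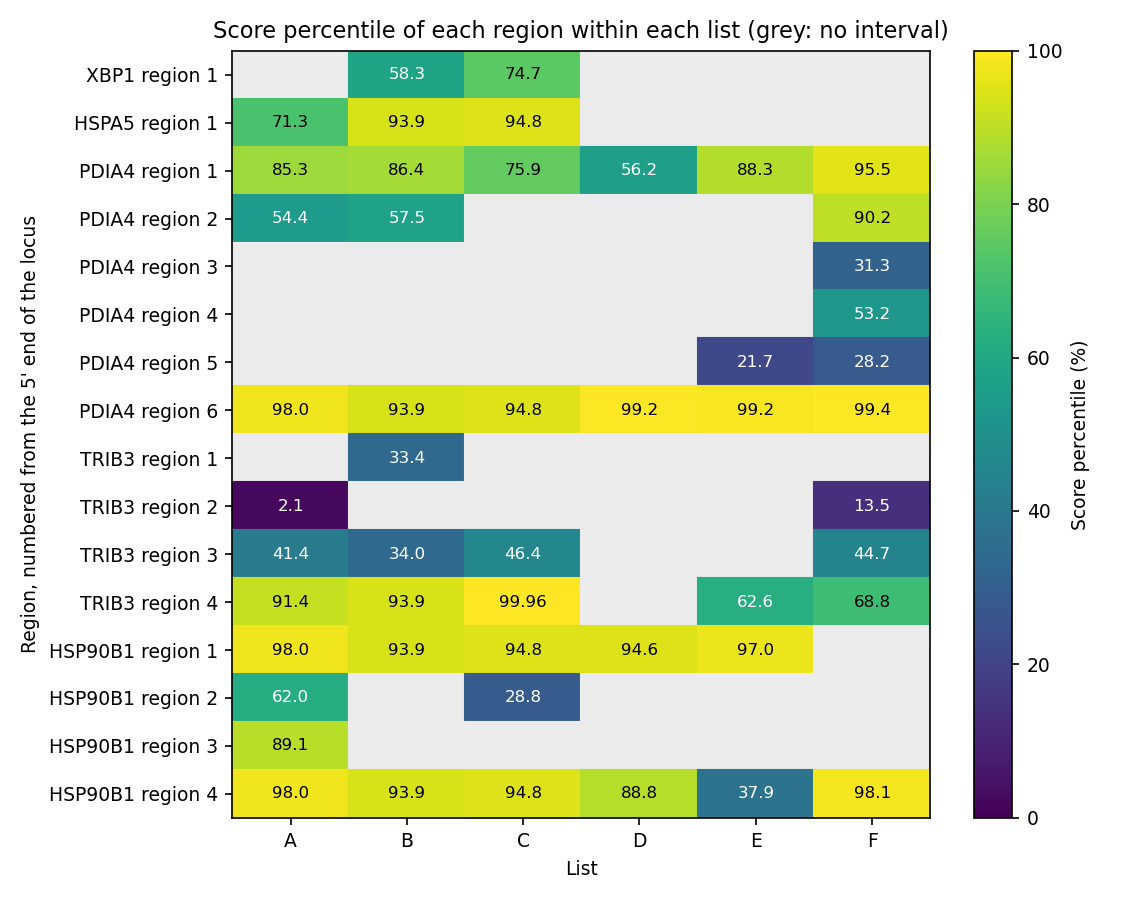
Score percentile of the 16 regions (rows, numbered from the 5′ end of each locus) in lists A to F (columns); grey cells have no interval. PDIA4 region 6, at the 3′ end, is at 93.9 or above in every list, and TRIB3 region 4 is at 91.4 or more in A, B and C, at 62.6 in E and at 68.8 in F. Percentiles rank intervals within a list and do not measure a change between lists.

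In 4 of the 5 loci, XBP1, PDIA4, TRIB3 and HSP90B1, the region nearest the 3′ end stopped within 5 bp of the end of the locus. That region held 68.1% of the covered bases of PDIA4 summed over lists, 75.1% of those of TRIB3 and 57.1% of those of HSP90B1. For XBP1 and HSPA5 it was the only region, and that of HSPA5 lay inside the locus. Of the 12 regions held by several lists, 9 had the same ends in every list holding them, beside 57.4% of such regions in the series. The exceptions were HSPA5, the 5′ end of PDIA4 and the 5′ end of HSP90B1. Exons were not placed and 3′ ends of other genes were not examined, because no annotation of hg19 was used here. Whether the 3′ position is particular to these loci is therefore not known.

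Members were 11 of the 12040 intervals of list A, 10 of 14908 in B and 9 of 12288 in C. In D they were 4 of 4837, in E 6 of 4530 and in F 10 of 4899. For their length, lists F and E thus held the most members and B the fewest. Member intervals covered 5851 bp of the 8 loci in list A, 6916 bp in list B and 6220 bp in list C. In list D they covered 1767 bp, in list E 3335 bp and in list F 4440 bp. The longer lists A, B and C covered more of these loci than the shorter D, E and F, and D, which lacked TRIB3, HSPA5 and XBP1, covered least. With every list reduced to its 4530 highest-scored intervals, A still covered 4944 bp, B 4763 bp and C 5785 bp. The covered bases of D, E and F did not change. HSPA5 then stayed in A, B and C, TRIB3 stayed in its 5 lists, and XBP1 stayed in C but not in B. Lists of equal length still differ in the lowest score they keep.

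**Figure D4:**
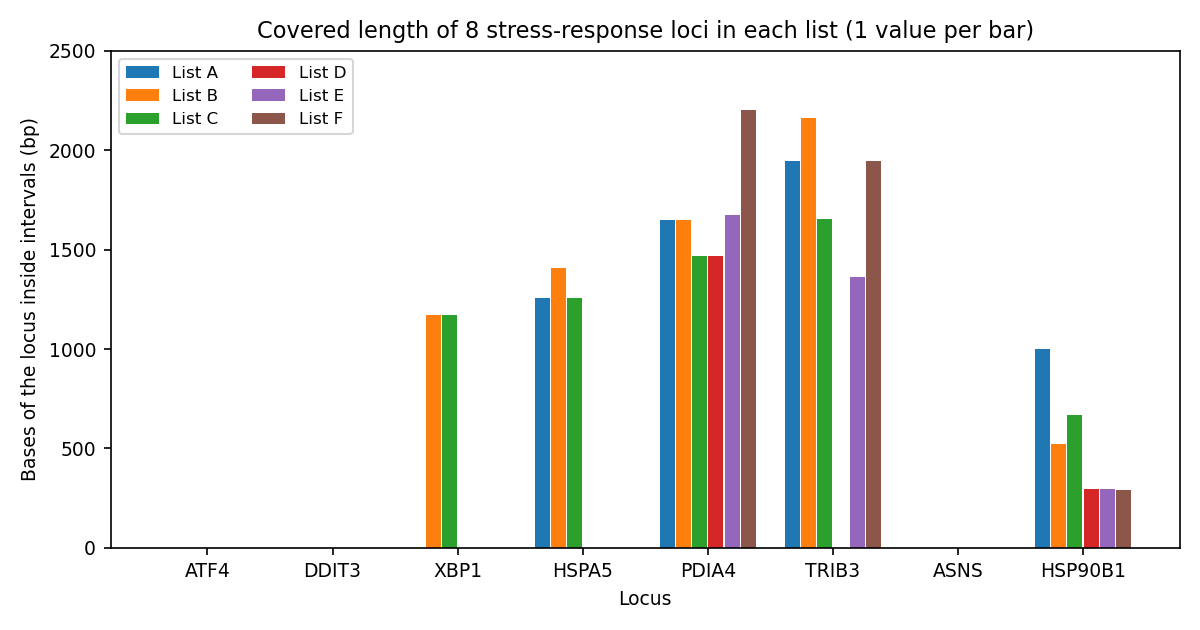
Bases of each of the 8 loci lying inside same-strand intervals (vertical axis, bp, from 0), 1 bar per list. ATF4, DDIT3 and ASNS have none, PDIA4 has 1469 to 2201 bp in the 6 lists, and HSPA5 has 1257 to 1408 bp in A, B and C.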

How the data were processed

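Each list has 6 columns and no header, giving the position, name, score and strand of a peak. The submitters' processing notes name the build hg19 and the read aligner HISAT2 (2.0.4). Ribosomal RNA was removed before the libraries were made, per the labels' protocols. The authors' deposited score is 1 value per peak, from about 70 upwards, on a scale not given in the sources used here. Peak names have the default form of MACS. Its settings, the libraries behind each list, depth and the treatment of reads that fit pseudogenes (HSPA5, HSP90B1 and ATF4 have some) are not given there, so no counting interval was computed. Nothing says whether replicates came from separate cultures.

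Starts were made 1-based. Intervals were members when they shared 1 bp or more with a locus on its strand, and regions were intervals joined over all lists on the same basis. All 8 members were named. The members and lists were chosen with earlier results of these data known. Other genes of the pathway were not analysed here, since gene positions of hg19 were at hand only for the 8 loci. Python 3.11.15, pandas 2.3.3 and numpy 2.4.6 were used. The code recovered 8 of 8 known values on simulated lists and matched the member counts of bedtools 2.31.1 in 6 of 6 lists. Promoter windows and gene neighbours came from RefSeq (GRCh38.p14), used for sequence and names only. Alternatives were strand, locus edges, minimum overlap, minimum score, equal list length and each list left out.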

Additional observations from a re-analysis of the deposited data

How the results depend on the processing

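With a minimum score of 260.4, the median over all lists, regions held by all lists fell from 3 to 1, the 3′ end of PDIA4, and the covered bases of E fell from 3335 to 1474 bp, since E lost its TRIB3 interval (1362 bp, score 256.34), the HSP90B1 3′ interval (293 bp, score 136.03) and a PDIA4 interval (206 bp, score 98.45). HSP90B1 then counted as present in E through 5 bp of the upstream interval. With each list left out in turn, member intervals numbered 39 to 46, regions held by all remaining lists 3 to 4 and loci with an interval in all of them 2 to 3, the third being TRIB3 without D. The other values of these counts and of the bases covered per list over all 8 loci moved by at most 1.5 times: member intervals were 52 on either strand, 48 with 50% of the interval inside the locus, 50 with loci widened by 1000 bp, 36 at the minimum score and 40 at equal length. Of single loci, TRIB3 in B went from 2161 to 1362 bp at both the minimum score and equal length, TRIB3 in E from 1362 to 0 bp and HSP90B1 in E from 298 to 5 bp at the minimum score, and XBP1 in B from 1173 to 0 bp at equal length. Among the 16 regions, the number of lists holding one moved by more than 1.5 times in 7 at the minimum score and in 6 at equal length. No paired analysis was possible because no result comes from a test and no list has a settled arm. Depth is unknown, so a missing interval is not an absent mark.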
